A study of Mus musculus with 9 samples.

Results

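Rab genes were measured in 9 polyA-selected RNA-seq libraries of a mouse cell line given vesicles from brain (BDEV), small membrane-enclosed carriers of protein and RNA that cells shed. The groups were SE-BDEV, cells given vesicles whose name refers to status epilepticus, a state of prolonged seizures, CON-BDEV, cells given the control vesicles, and Vehicle, cells treated without vesicles, with 3 libraries each. Library names carry the word Pilo for SE-BDEV, Saline for CON-BDEV and CON for Vehicle. The vesicle dose, the exposure time, and the strain and age of the donor animals are not given in the sources used here. The design text gives the cells as BV2 (mouse microglial line) and the sample labels give N2a (mouse neuroblastoma line), and either is an established line and not microglia taken from brain. The labels do not say whether libraries of a group came from separate cultures, so every p-value reflects spread among these libraries that may be technical in part.

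The members were chosen by name and level. Of 24318 genes in the tables, 62 matched the pattern of Rab, 1 or 2 digits and at most 2 further characters, and 43 of these averaged 1 FPKM or more across all 9 libraries (fragments per kilobase of transcript, scaled to library size, so that levels can be compared between genes). Of the 43 genes, 40 encode Rab GTPases. The other 3 only share the name: Rab3ip encodes an exchange factor for Rab8, and Rab10os and Rab26os are transcripts named as opposite-strand to Rab10 and Rab26. Another 19 matching genes stayed under 1 FPKM, 16 of them under 0.2 FPKM. Just inside the limit were Rab6b (1.44 FPKM) and Rab2b (1.56 FPKM), and just outside were Rab39 (0.952 FPKM) and Rab15 (0.569 FPKM).

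Rab proteins are small GTPases that give membrane compartments their identity. A guanine nucleotide exchange factor (GEF) loads a Rab with GTP on a target membrane, the GTP-bound Rab recruits effectors that tether, move or fuse vesicles, and a GTPase-activating protein (GAP) switches it off, after which GDP dissociation inhibitor (GDI) extracts its prenylated form from the membrane. In microglia and macrophages Rabs order the path from the plasma membrane through early endosome and phagosome to lysosome, and the recycling and secretory routes that return receptors or release cytokines and vesicles.

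The libraries carried the transcripts of microglia and macrophages. All 12 microglial and macrophage markers averaged 1 FPKM or more, with a median of 152.5 FPKM, and 4 of 11 N2a neuroblastoma markers did, while 5 of them, Th, Dbh, Mycn, Stmn2 and Chga, were listed at 0 in every library. The summed level of the N2a list was 110.7 to 119.3 FPKM in SE-BDEV, 112.5 to 120.3 FPKM in CON-BDEV and 89.5 to 93.0 FPKM in Vehicle. Most of it was Uchl1 (90.2 FPKM over all libraries), with Ina at 9.72, Elavl4 at 3.92 and Gata3 at 3.34 FPKM. Neuronal and synaptic markers summed to 20.6 to 21.4 FPKM in SE-BDEV, 19.8 to 20.9 FPKM in CON-BDEV and 18.7 to 19.8 FPKM in Vehicle. Of these 12 markers 2 reached 1 FPKM, Camk2a (15.3 FPKM) and Syn1 (4.33 FPKM), while Snap25 and Syt1 were near 0. Astrocyte markers summed to 36.4 to 40.3, 37.5 to 41.1 and 44.9 to 46.0 FPKM in SE-BDEV, CON-BDEV and Vehicle, almost wholly from Aldoc (39.8 FPKM), the only one of 8 to reach 1 FPKM. Oligodendrocyte markers (2 of 8) summed to 11.8 to 12.5, 10.8 to 13.4 and 13.9 to 14.1 FPKM, and endothelial and blood markers (2 of 8) to 47.5 to 52.8, 40.7 to 49.2 and 41.1 to 46.1 FPKM, in the same order. The part of these shifts in the Rab results was not tested. In bulk RNA, fewer cells of one state and less RNA per cell cannot be told apart. Estimated depth was lowest for CON-BDEV replicate 2 (28783000 fragments) and highest for Vehicle replicate 2 (33299000), so that a level of 1 FPKM rested on 57.6 to 66.6 fragments for 2 kb of exons.

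Upstream sequence is shown for the genes that passed the test in any comparison below, Rab10, Rab8b and Rab35, as the 250 bases before the annotated gene start (RefSeq, GRCm38.p6). They are given 5′ to 3′ on the gene's strand for Rab10 (chr12:3309970-3310219, minus strand), Rab8b (chr9:66919706-66919955, minus strand) and Rab35 (chr5:115631737-115631986, plus strand). Capitals mark GC boxes, with the letters GGGCGG, on either strand. They also mark the CCAAT box, spelled by its name, and antioxidant response elements, TGACNNNGC, again on either strand.
Rab10: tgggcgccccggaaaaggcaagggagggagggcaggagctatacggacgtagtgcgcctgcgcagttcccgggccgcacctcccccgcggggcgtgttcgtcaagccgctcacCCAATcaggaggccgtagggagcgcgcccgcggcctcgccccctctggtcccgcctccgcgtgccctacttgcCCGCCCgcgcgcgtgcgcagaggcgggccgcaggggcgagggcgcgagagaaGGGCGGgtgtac
Rab8b: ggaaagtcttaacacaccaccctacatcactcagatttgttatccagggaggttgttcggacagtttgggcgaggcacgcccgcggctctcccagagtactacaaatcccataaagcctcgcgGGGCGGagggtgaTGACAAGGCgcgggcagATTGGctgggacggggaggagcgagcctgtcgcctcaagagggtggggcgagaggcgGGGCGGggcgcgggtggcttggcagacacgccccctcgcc
Rab35: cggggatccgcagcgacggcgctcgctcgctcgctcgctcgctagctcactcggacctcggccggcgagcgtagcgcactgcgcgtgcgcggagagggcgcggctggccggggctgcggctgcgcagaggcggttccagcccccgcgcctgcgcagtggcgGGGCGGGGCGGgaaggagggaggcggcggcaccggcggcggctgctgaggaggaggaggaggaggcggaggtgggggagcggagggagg
All 3 held 2 GC boxes, which share letters in Rab35, Rab10 and Rab8b also a CCAAT box, and Rab8b alone of the 3 an antioxidant response element. A match in these letters is a description and not a binding site.

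Of the 43 genes, 37 had an upstream sequence of this kind, and Rab18, Rab1, Rab4a, Rab2a, Rab44 and Rab7b had none. GC boxes stood in 28 of the 37 (75.7%), against 65.6% of 8137 genes that averaged 1 FPKM or more and 35.4% of all 27025 genes in the RefSeq table. The CCAAT box was in 21 (56.8%, against 40.8% and 37.5%), the antioxidant response element in 6 (16.2%, against 14.2% and 11.5%) and TATAAA in 2 (5.41%, against 7.25% and 14.3%). The E-box CACGTG was in 5 (13.5%, against 10.4% and 6.86%). None of these shares was tested.

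The cells held Rabs of every compartment on the way from Golgi to lysosome, and few of the Rabs of regulated secretion. Rab7, which drives fusion of late endosomes and phagosomes with lysosomes, was highest at 222.9 FPKM over the 9 libraries, above 96.1% of genes with at least 1 FPKM, followed by Rab1b (150.0 FPKM), which acts between endoplasmic reticulum (ER) and Golgi. Only these 2 exceeded 100 FPKM, 28 genes lay between 10 and 100 FPKM and 13 between 1 and 10 FPKM. The median of the 43 was 22.1 FPKM, against 16.3 FPKM for all genes with at least 1 FPKM. The 3 highest GTPases, Rab7, Rab1b and Rab5c, took 33.1% of the summed FPKM of the 40, and the 10 highest took 65.4%. Levels varied little between libraries, with a median coefficient of variation of 6.05% and 37 of 43 genes under 10%.

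**Figure D1:**
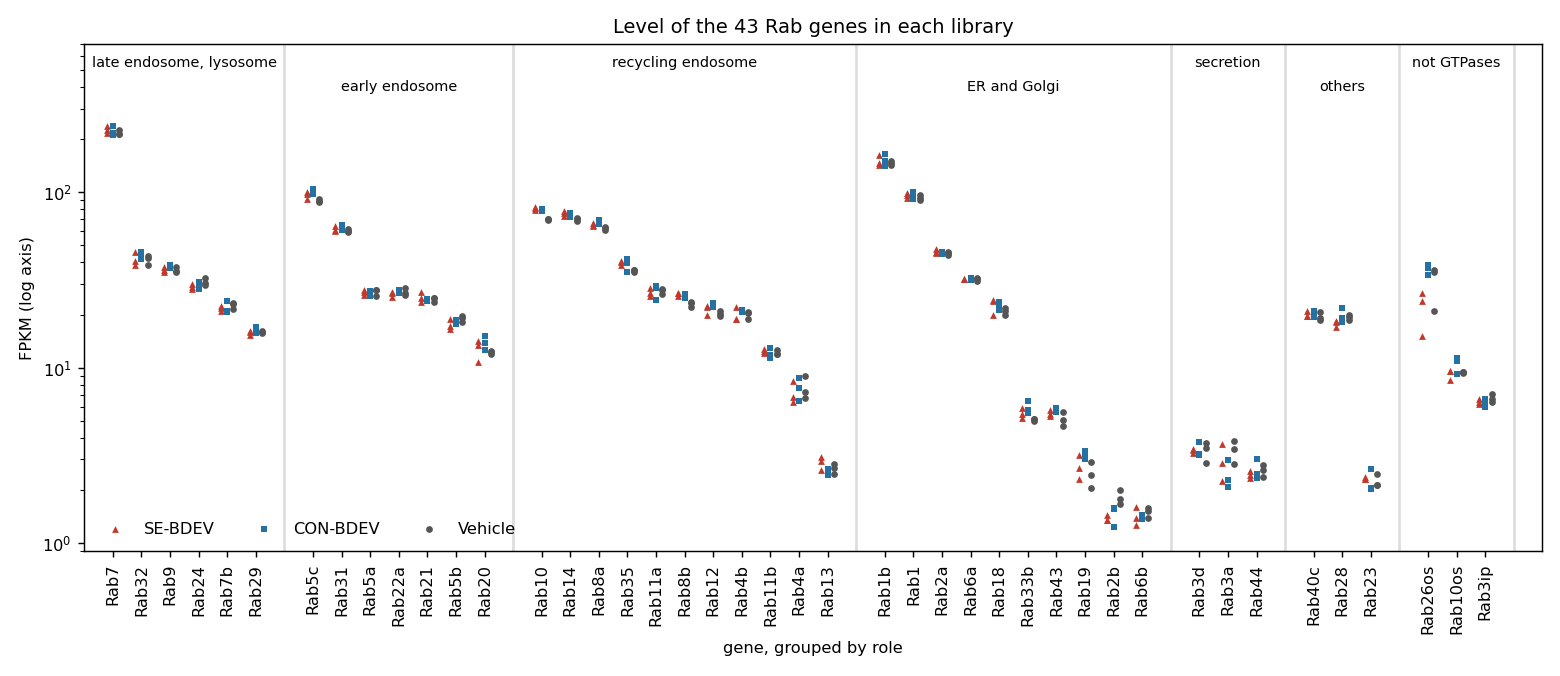
Level of each of the 43 Rab genes in each of the 9 libraries (log scale), by compartment, with points coloured for SE-BDEV, CON-BDEV and Vehicle. Rab7 stands highest at 222.9 FPKM over all libraries, and the secretory genes Rab3d, Rab3a and Rab44 lie near 3 FPKM. The libraries of most genes lie close together, while those of Rab26os run from 15.1 to 38.4 FPKM.

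By compartment, assigned from general knowledge of each protein, the 40 GTPases split almost evenly between the late endosome and lysosome (6 genes, 25.6 to 26.7% of the summed Rab GTPase FPKM across libraries), the recycling endosome (11 genes, 25.2 to 26.8%) and the ER and Golgi (10 genes, 24.9 to 25.97%). The early endosome took 18.3 to 19.3% with 7 genes. Regulated secretion took 0.547 to 0.756% with 3 genes, and 3 genes of the cilium and other places took 2.75 to 3.19%.

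In the late endosome and lysosome set, Rab7 had 225, 219 and 239 FPKM in SE-BDEV, 239, 212 and 217 FPKM in CON-BDEV and 214, 214 and 227 FPKM in Vehicle. The 3 groups overlapped. Rab32, which serves lysosome-related organelles, averaged 41.9 FPKM, whereas its paralog Rab38 was at 0.00262 FPKM. Rab9, which returns mannose 6-phosphate receptors to the Golgi, averaged 36.7 FPKM, Rab24, linked to autophagy, 29.6 FPKM, Rab7b, of the late endosome and Golgi, 22.2 FPKM, and Rab29, which recruits the kinase LRRK2, 16.1 FPKM. Rab7 exceeded Rab7b by 8.80 to 11.5 times in each library. None of the 6 genes passed the test in any comparison, and their limma log2 fold changes against Vehicle ran from -0.09 to 0.06 with SE-BDEV and from -0.08 to 0.06 with CON-BDEV.

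Among early endosome genes, Rab5c led its paralogs in every library, by 3.22 to 4.06 times over Rab5a and 4.51 to 5.63 times over Rab5b. The Rab5 proteins govern fusion of incoming vesicles and phagosomes with early endosomes. Rab5c had 92.0, 97.3 and 100.1 FPKM in SE-BDEV, 104, 97.7 and 98.6 FPKM in CON-BDEV and 89.6, 88.6 and 91.1 FPKM in Vehicle. All 6 vesicle libraries lay above all 3 Vehicle libraries. The share of all genes for which this held was not computed. The difference in Rab5c missed the threshold in limma's fit of all genes (log2 fold change 0.10 with SE-BDEV, adjusted p = 0.137, and 0.16 with CON-BDEV, adjusted p = 0.0595). Rab5c was called with CON-BDEV with 9 libraries in the fit (0.0486) and without CON-BDEV replicate 2 (0.0484). Rab31, which sorts between the Golgi network and endosomes, averaged 61.7 FPKM, Rab22a, of the early and recycling endosome, 26.8 FPKM, and Rab20, found on maturing phagosomes, 12.97 FPKM. Rab5a (26.9 FPKM) and Rab5b (18.3 FPKM) had log2 fold changes between -0.11 and 0.00 in the 3 comparisons, with no call.

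The ER and Golgi set was led by Rab1b and Rab1, the symbol that the files give for the Rab1b paralog. Rab1b had 143, 147 and 164 FPKM in SE-BDEV, 164, 141 and 150.1 FPKM in CON-BDEV and 144, 147 and 151 FPKM in Vehicle. Rab1 averaged 96.1 ± 2.96 FPKM in SE-BDEV, 95.6 ± 4.09 FPKM in CON-BDEV and 93.3 ± 2.67 FPKM in Vehicle (SD, n = 3 each), and Rab1b exceeded it by 1.49 to 1.66 times in each library. Rab2a, which acts in traffic between Golgi and ER and in lysosome fusion, averaged 45.3 FPKM and exceeded Rab2b by 22.2 to 36.9 times. Rab6a, of Golgi to ER return, averaged 32.0 FPKM and exceeded its paralog Rab6b by 19.99 to 25.1 times. Rab6a is listed with the same locus as Mrpl48 (52.9 FPKM), and how reads of overlapping genes were divided is not stated. The groups of these main isoforms overlapped in all 3 comparisons.

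The 6 vesicle libraries of Rab2b all lay below the 3 Vehicle libraries. The share of all genes separated in this way was not computed. Rab2b had 1.36, 1.36 and 1.44 FPKM in SE-BDEV, 1.24, 1.58 and 1.58 FPKM in CON-BDEV and 2.01, 1.79 and 1.66 FPKM in Vehicle. The limma log2 fold changes, on the log2(FPKM + 1) scale that understates changes of low genes, were -0.24 with SE-BDEV (adjusted p = 0.0791) and -0.20 with CON-BDEV (adjusted p = 0.231), so neither passed. With no mean-variance trend in the fit Rab2b was called lower with SE-BDEV (adjusted p = 0.0300). The files give Rab2b the same locus as Tox4 and Mettl3 (mm9, chr14:52881434-52924799), and how reads of overlapping genes were divided is not stated. Rab33b, which binds the autophagy factor ATG16L1, had 5.90, 5.46 and 5.15 FPKM in SE-BDEV, 5.74, 6.47 and 5.55 FPKM in CON-BDEV and 4.94, 5.09 and 5.12 FPKM in Vehicle. Its vesicle libraries all lay above Vehicle, without a call (limma log2 fold change 0.10, adjusted p = 0.299, with SE-BDEV and 0.19, adjusted p = 0.126, with CON-BDEV). Rab19, also of the Golgi, had 2.67, 3.20 and 2.31 FPKM in SE-BDEV, 3.03, 3.34 and 3.13 FPKM in CON-BDEV and 2.46, 2.89 and 2.06 FPKM in Vehicle. Its CON-BDEV libraries lay above Vehicle, with a log2 fold change of 0.27 that did not pass (adjusted p = 0.127).

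Rabs of regulated secretion were low or listed at 0. The highest was Rab3d, of secretory granules, with 3.27 to 3.42 FPKM in SE-BDEV, 3.19 to 3.76 FPKM in CON-BDEV and 2.88 to 3.72 FPKM in Vehicle. Its relatives Rab3a, the synaptic vesicle Rab, and Rab44, a large Rab of granulocytes and mast cells, averaged 2.91 and 2.56 FPKM, while Rab3b and Rab3c lay at 0.00329 and 0.000821 FPKM. Rab27a, which docks multivesicular bodies and granules for release, averaged 0.0389 FPKM and Rab27b was listed at 0 in all 9 libraries. In all, 5 matching genes were listed at 0 in every library, Rab27b, Rab36, Rab40b, Rab42 and Rab9b. Such a 0 can also come from a failed estimate. Rab3a overlaps Mpv17l2 in the files, a gene at 50.5 FPKM, and its log2 fold changes of -0.15 (SE-BDEV) and -0.33 (CON-BDEV) against Vehicle did not pass in limma (adjusted p = 0.480 and 0.127). Without CON-BDEV replicate 1 it was called lower with CON-BDEV (0.0345). Of the remaining genes, Rab40c, part of a ubiquitin ligase, averaged 19.9 FPKM, Rab28, of cilia and photoreceptors, 19.0 FPKM, and Rab23, an inhibitor of Hedgehog signalling, 2.28 FPKM.

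With SE-BDEV, Rab10, Rab8b and Rab35 rose relative to Vehicle and no Rab gene fell. This was 3 of 43 (6.98%) against a background of 11.9% of 10535 genes called in either direction, 6.76% called higher and 5.14% called lower. All 3 were placed in the recycling set, which was made with earlier results of these data known, so their shared set is a description only. The share of Rab genes called was below that of all genes in either direction and close to that of all genes called higher. Rab10, which delivers glucose transporters and Toll-like receptor 4 to the cell surface, had 82.5, 79.0 and 81.0 FPKM in SE-BDEV, against 70.6, 69.4 and 70.3 FPKM in Vehicle. Rab8b, of polarised transport to the surface, had 26.7, 26.5 and 25.5 FPKM in SE-BDEV, against 22.1, 23.6 and 23.5 FPKM in Vehicle. Rab35, of fast recycling and phagocytic cup formation, had 40.5, 38.3 and 40.3 FPKM in SE-BDEV, against 35.9, 35.3 and 36.1 FPKM in Vehicle. In all 3 genes the groups did not overlap, with the SE-BDEV mean 15.4% (Rab10), 13.7% (Rab8b) and 11.0% (Rab35) above the Vehicle mean. The limma log2 fold changes were 0.20 (SE 0.035, adjusted p = 0.00700), 0.18 (SE 0.043, adjusted p = 0.0286) and 0.15 (SE 0.038, adjusted p = 0.0389), adjusted by Benjamini and Hochberg over all genes. In mm9, Rab10 lies on chr12:3235791-3309969, Rab8b on chr9:66691471-66767512 and Rab35 on chr5:116081996-116097167. The Rab10 locus is shared with Rab10os in the files.

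The call of Rab10 held without each of the 6 libraries in turn (highest adjusted p = 0.0378, without Vehicle replicate 2), but those of Rab8b and Rab35 each held in 1 of 6 such fits. Rab8b missed the threshold without Vehicle replicates 1 (adjusted p = 0.119), 2 (0.0633) and 3 (0.0633) and without SE-BDEV replicates 1 (0.0685) and 2 (0.0777). Rab35 missed it without Vehicle replicates 1 (adjusted p = 0.117), 2 (0.130) and 3 (0.0876) and without SE-BDEV replicates 1 (0.0923) and 3 (0.0699), in limma fits. Rab8b also missed it with no filter on low values (0.0532), and Rab35 with 9 libraries in the fit (0.143) and with no mean-variance trend (0.0631). No gene of the 43 (0) had a q under 0.05 for this comparison in the authors' deposited table, and the lowest was 0.150 for Rab10, with a log2 fold change of 0.21.

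**Figure D2:**
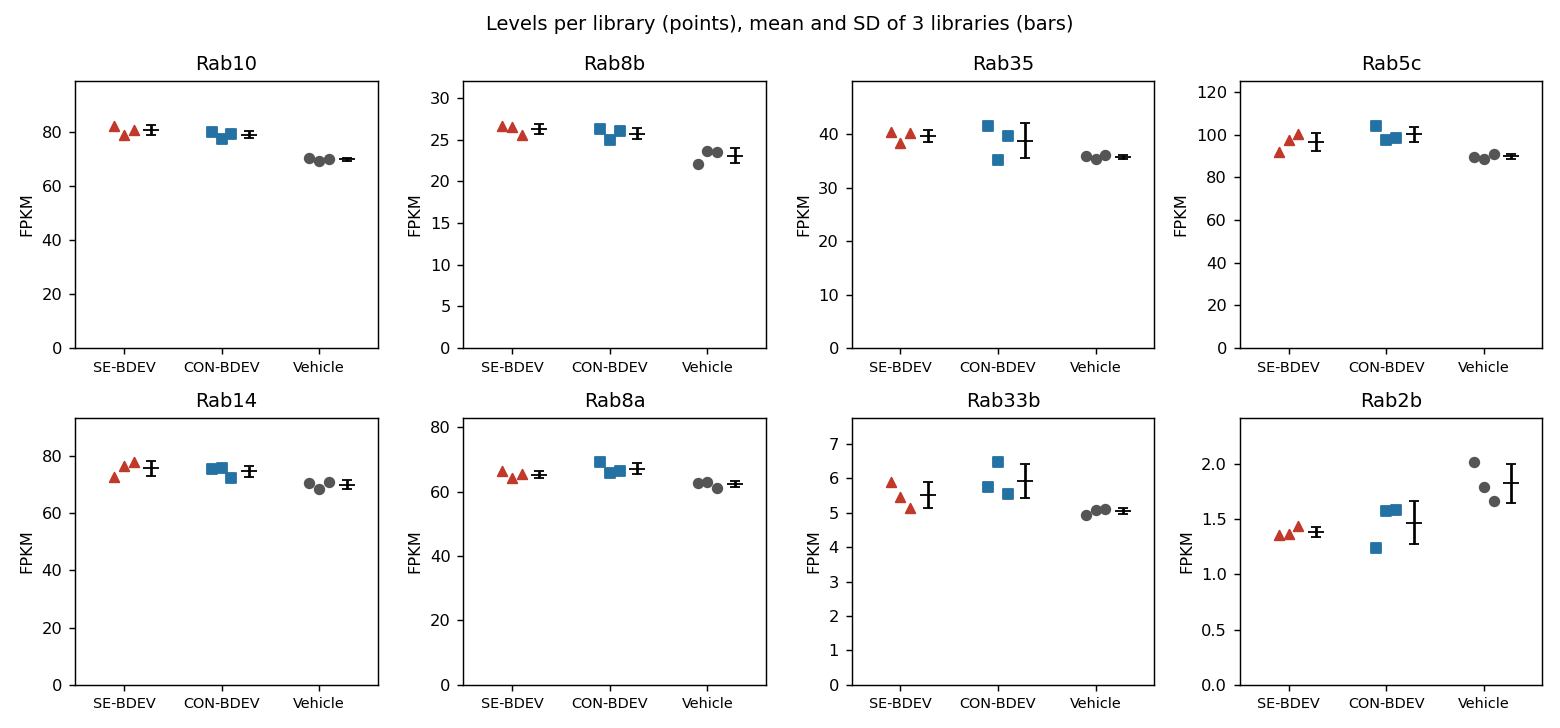
FPKM of 8 Rab genes in each library (points) of SE-BDEV, CON-BDEV and Vehicle, with the mean and SD of the 3 libraries beside them and axes from 0. Rab10 has 79.0 to 82.5 FPKM in SE-BDEV and 77.7 to 80.2 FPKM in CON-BDEV, against 69.4 to 70.6 FPKM in Vehicle. Rab2b has both vesicle groups below Vehicle throughout.

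With CON-BDEV, Rab10 alone rose and no Rab gene fell, 1 of 43 (2.33%) against 5.67% of 10535 genes called in either direction, 3.81% called higher and 1.86% called lower. Of the 597 called genes 67.2% were higher, and of the 550 called after quantile normalization 54.7% were. It had 80.2, 77.7 and 79.4 FPKM in CON-BDEV, against 70.6, 69.4 and 70.3 FPKM in Vehicle, a CON-BDEV mean 12.9% higher (limma log2 fold change 0.17, SE 0.037, adjusted p = 0.0327). Without Vehicle replicates 1, 2 and 3 the adjusted p was 0.134, 0.139 and 0.110, and without CON-BDEV replicate 3 it was 0.0971, so the call was lost without each of these 4 libraries. It was also lost after quantile normalization (0.0698) and with no mean-variance trend in the fit (0.0646). Rab8b had 26.2, 24.95 and 25.98 FPKM in CON-BDEV (log2 fold change 0.15, adjusted p = 0.0975) and Rab35 had 41.6, 35.1 and 39.6 FPKM (0.11, adjusted p = 0.306), and neither passed. Rab35 was called without CON-BDEV replicate 2 (0.0485). None of the 43 (0) had a q under 0.05 in the authors' deposited table, with the lowest, 0.291, for Rab33b. Both comparisons use the same 3 Vehicle libraries, so their values are given side by side and not as independent evidence.

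Counting groups that did not overlap, irrespective of the test, 7 Rab genes were higher with SE-BDEV (16.3%, against 16.5% of all genes) and 2 were lower (4.65%, against 16.3%), Rab2b and Rab28, where 32.8% of all genes did not overlap in either direction. With CON-BDEV 9 were higher (20.9%, against 16.6% of all genes) and 1 was lower (2.33%, against 12.7%), where 29.3% of all genes did not overlap in either direction. At an unadjusted p under 0.05 there were 7 Rab genes with SE-BDEV (16.3%, against 27.4%) and 10 with CON-BDEV (23.3%, against 23.5%). The median log2 fold change of the 43 was 0.02 with SE-BDEV and 0.03 with CON-BDEV, against 0.00 and 0.01 for all genes, and 26 and 30 of the 43 were positive. Of the 40 not called with SE-BDEV, 36 had a 95% interval of the log2 fold change within 0.32 of 0 in both directions, and so had 37 of the 42 not called with CON-BDEV. These intervals are on the log2(FPKM + 1) scale, which understates changes of low genes.

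**Figure D3:**
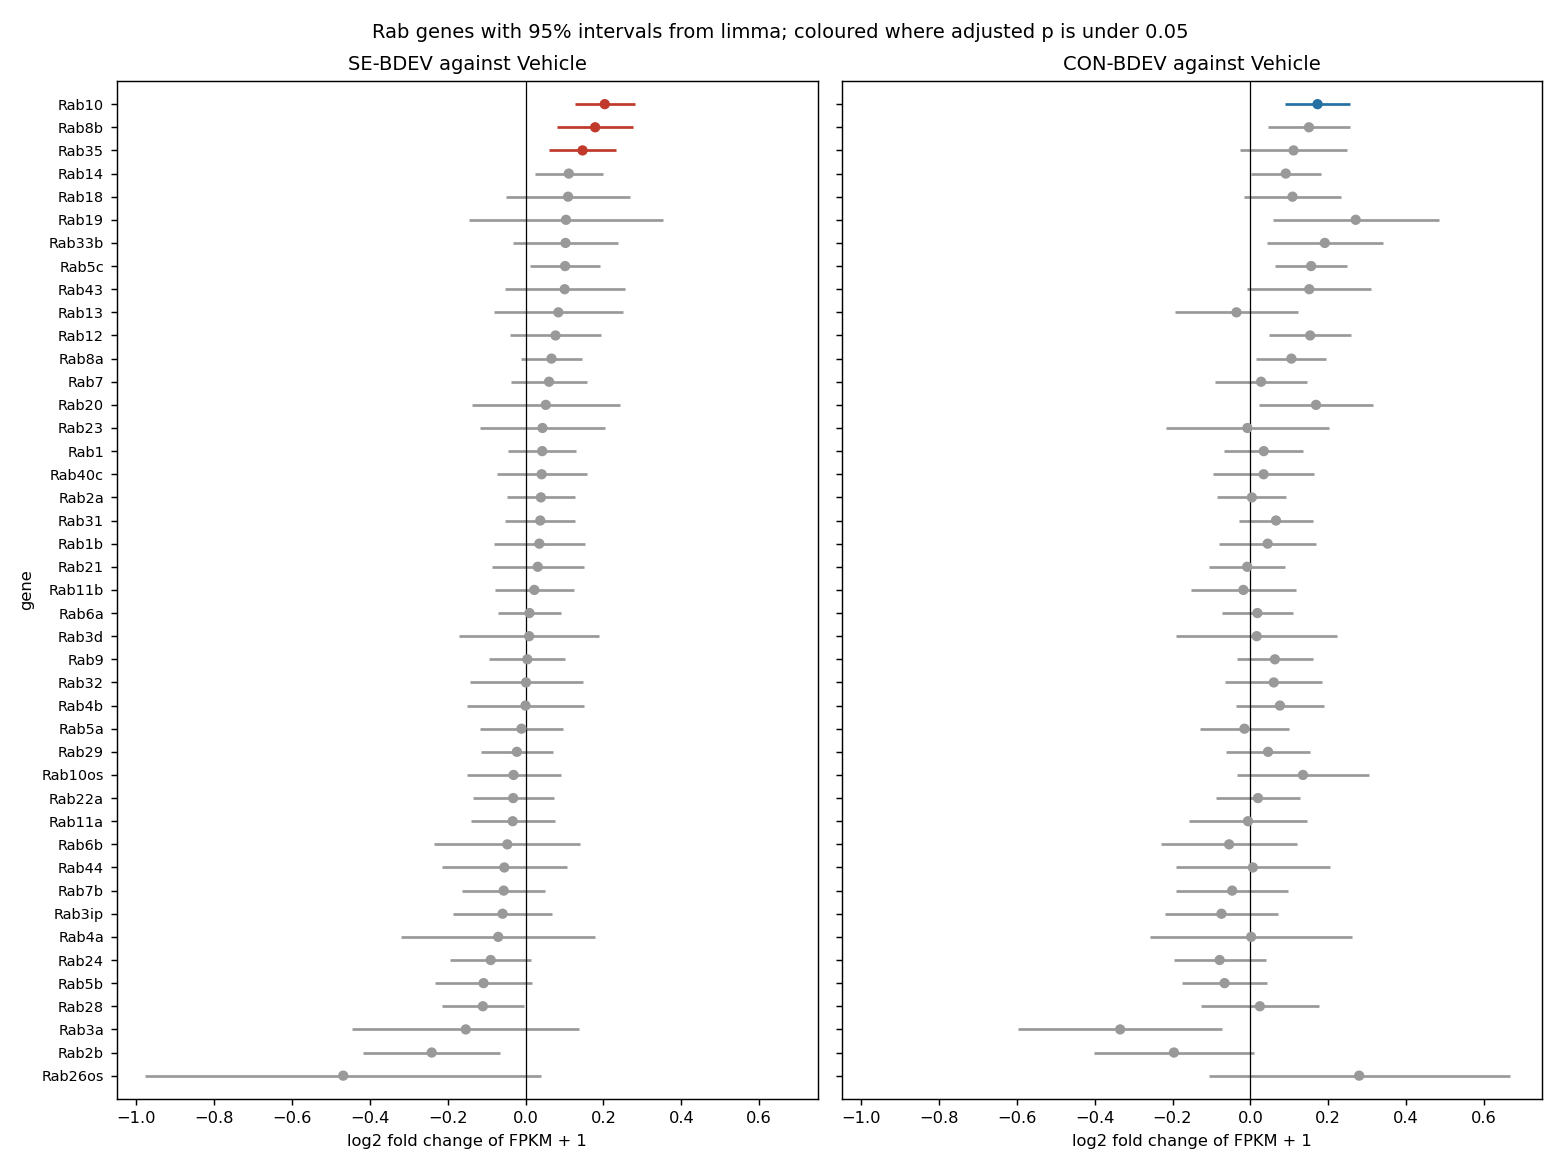
Limma log2 fold change of each Rab gene with its 95% interval, for SE-BDEV against Vehicle (left panel) and CON-BDEV against Vehicle (right panel), with genes past the threshold in colour. Rab10 (0.20 and 0.17) passes in both panels, Rab8b (0.18) and Rab35 (0.15) pass with SE-BDEV, and the widest intervals belong to Rab26os.

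In the recycling set, 5 of 11 genes lay above Vehicle without overlap with SE-BDEV, and 5 of 11 with CON-BDEV, where 16.5% and 16.6% of all genes did. The set was made with earlier results of these data known, so these counts are a description and were not tested. Among the genes above Vehicle were Rab14, which acts between Golgi and endosomes, and Rab8a, the closest paralog of Rab8b. Rab14 had 72.8, 76.5 and 77.8 FPKM in SE-BDEV, 75.6, 75.9 and 72.5 FPKM in CON-BDEV and 70.7, 68.3 and 71.0 FPKM in Vehicle, and Rab8a had 66.5, 64.1 and 65.4 FPKM, 69.1, 65.8 and 66.4 FPKM and 62.7, 63.1 and 61.2 FPKM in the same order. Neither passed in limma with SE-BDEV (Rab14 adjusted p = 0.101, Rab8a 0.252) or with CON-BDEV (0.211 and 0.153). Rab8a exceeded Rab8b by 2.42 to 2.84 times in each library. Rab12, of recycling to degradation, had 20.02, 22.4 and 22.2 FPKM in SE-BDEV, 23.4, 22.5 and 22.3 FPKM in CON-BDEV and 21.0, 20.3 and 19.7 FPKM in Vehicle, higher in every CON-BDEV library than in Vehicle without a call (adjusted p = 0.0895). Rab11a, the classic Rab of slow recycling, had log2 fold changes of -0.03 (SE-BDEV) and -0.01 (CON-BDEV), and its paralog Rab11b had 0.02 and -0.02, without a call. Rab11a exceeded Rab11b by 2.06 to 2.53 times in each library.

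The summed FPKM of the 11 recycling genes was 379 ± 5.77 in SE-BDEV, 379 ± 9.77 in CON-BDEV and 352 ± 2.66 in Vehicle (mean ± SD, n = 3 each), and the vesicle groups (374 to 385 and 372 to 390.2 FPKM) did not overlap Vehicle (349 to 354 FPKM). Summed over all 40 GTPases the levels were 1431 ± 35.7 in SE-BDEV, 1439 ± 38.4 in CON-BDEV and 1381 ± 18.8 FPKM in Vehicle. Those of SE-BDEV ran from 1404 to 1472 FPKM, of CON-BDEV from 1416 to 1484 FPKM and of Vehicle from 1365 to 1402 FPKM. Of the summed FPKM of a library without the ferritin genes, the 40 GTPases took 0.236 to 0.248% in SE-BDEV, 0.231 to 0.247% in CON-BDEV and 0.230 to 0.234% in Vehicle, so that by share SE-BDEV lay above Vehicle and CON-BDEV overlapped it. The early endosome sum was 257 to 272 FPKM in SE-BDEV, 270 to 277 FPKM in CON-BDEV and 255 to 266 FPKM in Vehicle, where CON-BDEV lay above Vehicle and SE-BDEV overlapped it. No test was run on these sums, since the sets were described with the results known.

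**Figure D4:**
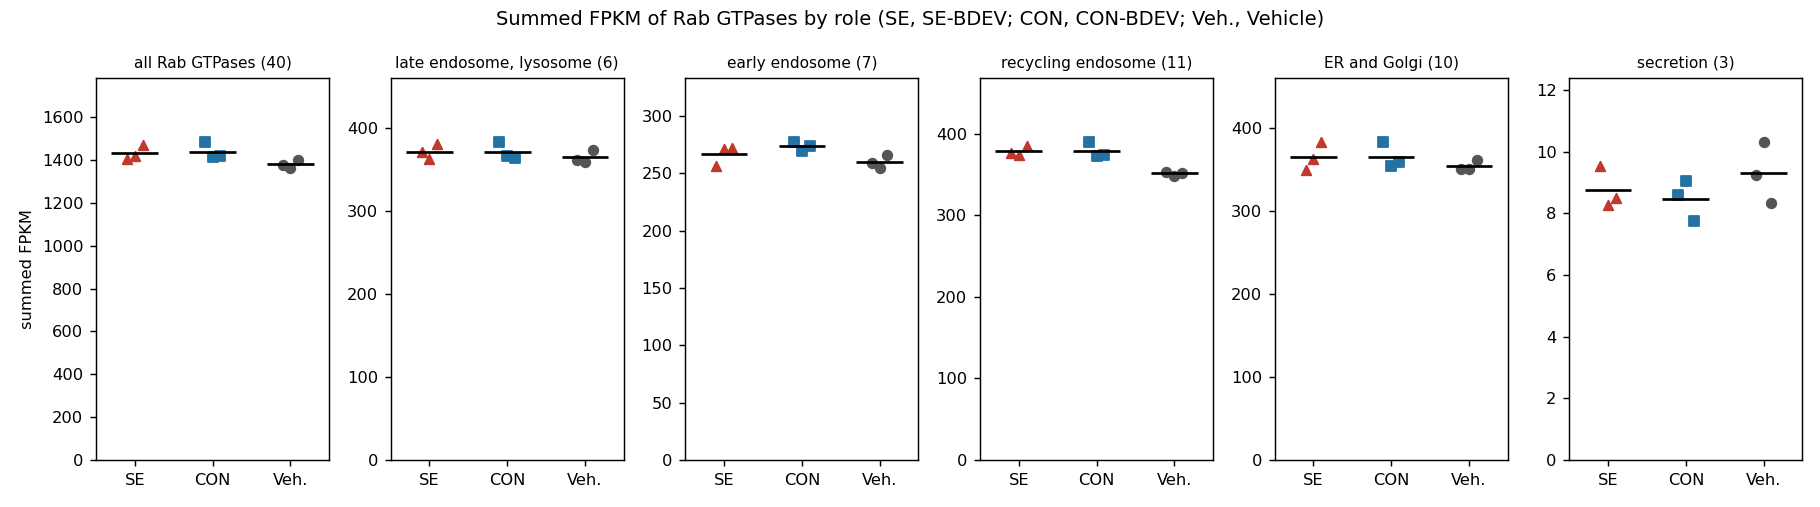
Summed FPKM of the Rab GTPases of each compartment in each library (points, with bars at the group means and axes from 0) of SE-BDEV, CON-BDEV and Vehicle. For the recycling endosome the SE-BDEV and CON-BDEV libraries (374 to 385 and 372 to 390.2 FPKM) lie above the Vehicle libraries (349 to 354 FPKM), whereas late endosome, ER and Golgi sums overlap between groups.

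Between the vesicle groups, SE-BDEV against CON-BDEV, limma called 0 of 43 Rab genes, and 0% of all 10532 genes. At an unadjusted p under 0.05 there were 2 Rab genes (4.65%, against 4.83% of all genes), both outside the GTPases, Rab26os and Rab10os. The groups did not overlap in 0 Rab genes that were higher (2.74% of all genes) and in 1 that was lower, Rab26os (5.19%, and 7.94% in either direction). The difference in Rab10 was 0.03 on the log2 scale (95% interval -0.05 to 0.11), in Rab8b 0.03 (-0.07 to 0.12) and in Rab35 0.04 (-0.09 to 0.16). Of the 43 genes, 38 had an interval within 0.32 of 0 on the log2(FPKM + 1) scale, which understates changes of low genes. A missed threshold does not show that the vesicles act alike. Among GTPases the largest differences were in Rab3a (0.18), Rab19, of the Golgi (-0.17), and Rab28 (-0.13), with limma adjusted p of 0.999 each.

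Rab26os stood out in spread. It had 24.0, 15.1 and 26.5 FPKM in SE-BDEV, 38.4, 37.2 and 33.9 FPKM in CON-BDEV and 36.0, 35.2 and 21.0 FPKM in Vehicle, so every SE-BDEV library lay below every CON-BDEV library while Vehicle overlapped SE-BDEV. The limma log2 fold change of SE-BDEV against CON-BDEV was -0.75 (95% interval -1.21 to -0.28), with an unadjusted p of 0.00471 and an adjusted p = 0.991. Its locus, chr17:24665196-24665689 in mm9, ends before the start of Rab26 at 24665999, and Rab26 itself averaged 0.0259 FPKM. The other opposite-strand transcript, Rab10os, had 9.53, 9.57 and 8.54 FPKM in SE-BDEV, 10.9, 9.15 and 11.4 FPKM in CON-BDEV and 9.34, 9.42 and 9.50 FPKM in Vehicle, with a log2 fold change of -0.17 between SE-BDEV and CON-BDEV (unadjusted p = 0.0463, limma adjusted p = 0.999). The library kit is directional per the labels, but whether counting used strand is not stated, so reads of Rab10 and Rab10os cannot be told apart here.

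Lists of Rab regulators were described by their counts. Among 32 GAPs tested with SE-BDEV, 1 was higher and 2 were lower (9.38%, against 11.9% of all genes called in either direction). Sgsm1, a GAP of the RUN and TBC domain family, had 14.8, 15.0 and 14.1 FPKM in SE-BDEV, against 19.6, 20.4 and 20.5 FPKM in Vehicle, a mean 27.5% lower (limma log2 fold change -0.44, SE 0.044, adjusted p = 0.000419). With CON-BDEV it averaged 14.1 ± 1.46 FPKM, against 20.2 ± 0.524 FPKM in Vehicle (SD, n = 3 each; log2 fold change -0.49, adjusted p = 0.00864). Tbc1d2, a GAP for Rab7, fell by 0.25 with SE-BDEV (adjusted p = 0.0428) and by 0.28 with CON-BDEV (adjusted p = 0.0394), and Tbc1d15, also a Rab7 GAP, rose by 0.21 with SE-BDEV (adjusted p = 0.0145). With CON-BDEV 0 of 32 GAPs were higher and 2 were lower (6.25%, against 5.67% of all genes). The Sgsm1 call with SE-BDEV held without each library (highest adjusted p = 0.00441), and with CON-BDEV it was lost without Vehicle replicate 2 (0.0507). Tbc1d2 held in 1 of 6 such fits in each comparison (highest adjusted p = 0.154 with SE-BDEV and 0.171 with CON-BDEV), missing without each Vehicle library, without SE-BDEV replicates 1 and 2 and without CON-BDEV replicates 2 and 3, and Tbc1d15 missed without Vehicle replicates 1 and 2 (highest 0.0704).

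Of 38 GEFs tested, 1 was higher and 2 were lower with SE-BDEV (7.89%, against 11.9% of all genes). With CON-BDEV 0 of 38 passed in limma (against 5.67% of all genes), with 9 at an unadjusted p under 0.05 (23.7%, against 23.5%). St5, which carries a DENN domain and acts on Rab13, rose by 0.31 (7.78 ± 0.115 FPKM in SE-BDEV, against 6.06 ± 0.245 FPKM in Vehicle, SD, n = 3 each; adjusted p = 0.00562) and held without each library (highest 0.0302). Dennd1c, a DENN protein acting on Rab35, fell by 0.22 (adjusted p = 0.0246), and Dennd3, which acts on Rab12, fell by 0.19 (0.0472). Dennd1c missed the threshold without Vehicle replicates 1 and 2 and SE-BDEV replicates 1 and 2 (highest 0.108), and Dennd3 without each Vehicle library and without SE-BDEV replicates 1 and 2 (highest 0.178). The GEFs with the highest mean, Ccz1, a subunit of the Rab7 activator, and Trappc1, a Rab1 activator subunit, had log2 fold changes of -0.01 and -0.21 with SE-BDEV (adjusted p = 0.898 and 0.199) and 0.04 and -0.21 with CON-BDEV (adjusted p = 0.714 and 0.194).

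Of 6 prenylation, escort and GDI genes tested, 0 passed in limma with SE-BDEV (against 11.9% of all genes) and 0 with CON-BDEV (against 5.67%). At an unadjusted p under 0.05 there was 1 with SE-BDEV (16.7%, against 27.4% of all genes) and 0 with CON-BDEV (against 23.5%). Gdi2, a GDI, averaged 161.6 FPKM and had log2 fold changes of 0.07 (SE-BDEV) and 0.06 (CON-BDEV), with adjusted p of 0.252 and 0.377. Rabggtb, the catalytic subunit of Rab prenylation, had -0.12 and -0.02, with adjusted p of 0.0515 and 0.774. Of 41 effectors and tethers tested, 3 were higher and 1 was lower with SE-BDEV (9.76%, against 11.9% of all genes). With CON-BDEV 0 passed in limma (against 5.67%), with 8 at an unadjusted p under 0.05 (19.5%, against 23.5%). Plekhm1, a Rab7 effector of lysosome fusion, rose by 0.21 (adjusted p = 0.0136), Rabep1, a Rab5 effector, rose by 0.19 (0.0145), Vps8, of the CORVET tether, rose by 0.17 (0.0450) and Micall2, which binds Rab13 and Rab8, fell by 0.19 (0.0472). Plekhm1 missed without Vehicle replicate 1 (0.0666), Rabep1 without Vehicle replicates 1 and 2 (highest 0.0683), Vps8 without each of the 6 libraries (highest 0.147) and Micall2 without the Vehicle libraries and SE-BDEV replicates 1 and 2 (highest 0.152). Of the effectors with the highest mean, Rilpl2, which binds LRRK2-phosphorylated Rabs, had log2 fold changes of -0.12 with SE-BDEV (adjusted p = 0.143, with every SE-BDEV library below Vehicle) and 0.08 with CON-BDEV (adjusted p = 0.501). Vps16, of the HOPS and CORVET tethers, had 0.05 with SE-BDEV (adjusted p = 0.410) and 0.08 with CON-BDEV (adjusted p = 0.314).

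The kinases LRRK1 and LRRK2, which phosphorylate Rabs, and the phosphatase PPM1H, which reverses it, gave 0 calls of 3 in either vesicle comparison in limma. Of all genes 11.9% were called with SE-BDEV and 5.67% with CON-BDEV. At an unadjusted p under 0.05 there were 0 of the 3 with SE-BDEV (against 27.4% of all genes) and 1 with CON-BDEV (33.3%, against 23.5%). Lrrk2 averaged 4.18 ± 0.197 FPKM in SE-BDEV, 3.87 ± 0.0477 FPKM in CON-BDEV and 4.61 ± 0.0682 FPKM in Vehicle (SD, n = 3 each), with adjusted p of 0.219 and 0.0740. The log2 fold changes of Ppm1h were 0.12 with SE-BDEV and 0.08 with CON-BDEV (adjusted p = 0.210 and 0.425), and those of Lrrk1 were 0.09 and 0.00 (0.279 and 0.983).

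The ARF and ARL GTPases, relatives of the Rabs that act in coat and tether recruitment, gave 3 higher and 1 lower of 26 with SE-BDEV (15.4%, against 11.9% of all genes), and 1 higher and 0 lower with CON-BDEV (3.85%, against 5.67%). Arl1, of the trans-Golgi network, had 113, 122 and 124 FPKM in SE-BDEV, against 94.9, 93.7 and 94.3 FPKM in Vehicle, a mean 26.7% higher (limma log2 fold change 0.34, adjusted p = 0.00134). With CON-BDEV it averaged 118 ± 8.96 FPKM, against 94.3 ± 0.574 FPKM in Vehicle (SD, n = 3 each; log2 fold change 0.32, adjusted p = 0.0158). Arl2, a tubulin folding regulator, fell by 0.41 with SE-BDEV (28.6 ± 1.68 FPKM, against 38.3 ± 1.38 FPKM in Vehicle; adjusted p = 0.00134). Arl15 rose by 0.24 (0.0122) and Arl11 rose by 0.21 (0.0163) with SE-BDEV. The calls of Arl1 and Arl2 with SE-BDEV held without each library (highest adjusted p = 0.00960 and 0.0100). Arl1 with CON-BDEV missed without each Vehicle library and CON-BDEV replicate 3 (highest 0.0731), Arl15 without Vehicle replicate 1 (0.0577) and Arl11 without Vehicle replicates 2 and 3 and SE-BDEV replicate 2 (highest 0.0644). Between SE-BDEV and CON-BDEV, none of the regulator, effector, kinase or ARF lists held a gene past the threshold in limma, where 0% of all genes passed. At an unadjusted p under 0.05 they held 0 of 38 GEFs, 0 of 32 GAPs and 0 of 3 kinase and phosphatase genes, against 4.83% of all genes. There were also 1 of 6 prenylation genes (16.7%), 1 of 41 effectors (2.44%) and 2 of 26 ARF or ARL genes (7.69%).

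**Figure D5:**
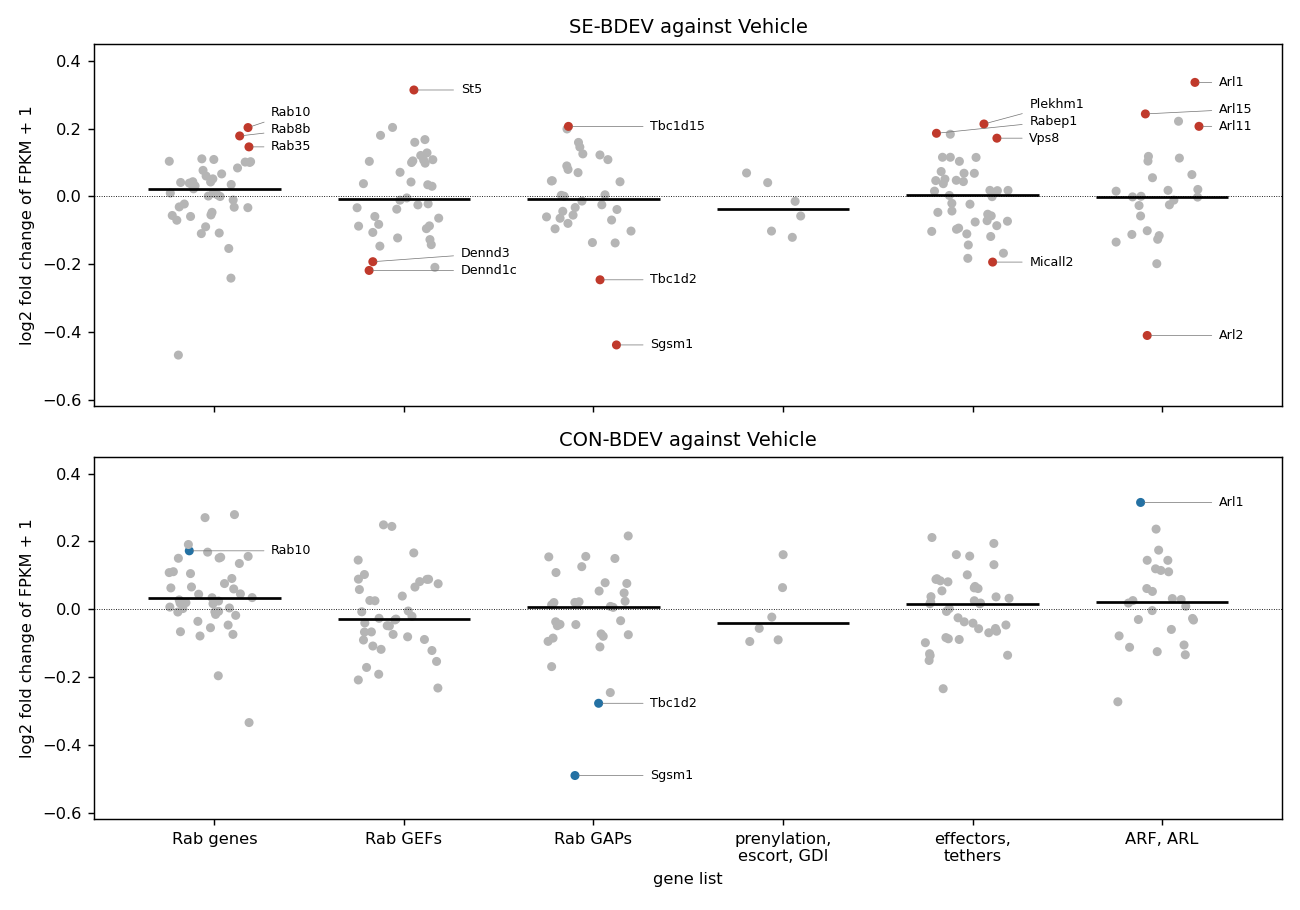
Limma log2 fold change of each tested Rab gene, regulator, effector and ARF or ARL gene against Vehicle, for SE-BDEV (upper panel) and CON-BDEV (lower panel), with coloured, named points for genes past the threshold and a bar at each list's median. Sgsm1 lies lowest among the GAPs in both panels (-0.44 and -0.49) and Arl1 highest among the ARF and ARL genes (0.34 and 0.32).

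The median log2 fold change of most lists lay close to that of all genes (0.00 with SE-BDEV and 0.01 with CON-BDEV). With SE-BDEV it was -0.01 for the GEFs, -0.01 for the GAPs, -0.04 for prenylation, escort and GDI genes, 0.00 for effectors and tethers and 0.00 for ARF and ARL genes. With CON-BDEV the same lists had -0.03, 0.01, -0.04, 0.02 and 0.02. The list of 3 kinase and phosphatase genes had a median of 0.09 with SE-BDEV, farther from that of all genes, and 0.00 with CON-BDEV.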

How the data were processed

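TopHat2 and Cuffdiff were used on mm9 by the authors, per the submitters' processing notes, and the annotation and versions are not given in the sources used here. The deposited FPKM tables hold 1 value per gene and library, in 1 table for SE-BDEV with Vehicle and 1 for CON-BDEV with Vehicle. Per the file headers, the authors' Cuffdiff tables give group FPKM, the log2 fold change over Vehicle, a test score (not used in the results), and a p-value and q-value per gene. The Vehicle libraries stand in both tables with near-constant ratios (1.00042, 1.00012 and 1.00078), so SE-BDEV was divided by 1.00044 to join the tables. Coordinates of loci are mm9, with 1 added to the listed starts so that they count from 1. Ferritin genes Fth1 and Ftl1, with failed estimates in some libraries, were left out.

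FPKM are not counts, so log2(FPKM + 1) was fitted with limma 3.58.1 in R 4.3.3 (eBayes with trend, 2-sided, Benjamini-Hochberg adjustment over all genes, threshold 0.05). A fit took the genes averaging 1 FPKM or more over its own libraries. Each vesicle group was compared with Vehicle in its own 6 libraries, and SE-BDEV with CON-BDEV in all 9. The smallest p of an exact permutation test at 3 against 3 is 0.1. Depth was estimated from the smallest steps between values under 0.05 FPKM in 31 genes with at least 4000 nt of exons. Fits were tested on simulated data. Genes are named by a rule: all called members, the 10 highest, the highest of each compartment, the 5 largest changes per comparison, those nearest 1 FPKM, close paralogs, and up to 4 called or else the 2 highest genes of each regulator list. Any other gene was chosen after its values were seen. Members, lists and compartments were chosen with earlier results of these data known, and 2 genes of these lists are not reported here. Alternatives covered the pseudocount, filters, scaling, the libraries in the fit, blocks, the trend and leaving out each library. The blocks were the replicate number and the digit that opens the code in a library name. Vehicle replicates 1 and 2, CON-BDEV replicate 1 and SE-BDEV replicate 1 carry digit 1. The other libraries carry digit 2, so the digit is not balanced between Vehicle and the vesicle groups.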

Additional observations from a re-analysis of the deposited data

Results flagged for a closer look

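The estimates of Rab26os against Vehicle had opposite signs with the vesicle preparations, at -0.47 with SE-BDEV and 0.28 with CON-BDEV on the log2 scale. The limma difference between SE-BDEV and CON-BDEV was -0.75, with an unadjusted p of 0.00471 and an adjusted p = 0.991 over all genes, so it failed the correction. Every SE-BDEV library was lower than every CON-BDEV library. Neither change against Vehicle passed (adjusted p = 0.215 with SE-BDEV and 0.355 with CON-BDEV).

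Rab25, an epithelial relative of Rab11, lies under the 1 FPKM limit and so is not among the 43 genes. It averaged 0.12 FPKM over the 6 vesicle libraries, above its level in Vehicle. It had 0.120, 0.289 and 0.0745 FPKM in SE-BDEV and 0.0789, 0.0423 and 0.114 FPKM in CON-BDEV, against 0.0371, 0 and 0 FPKM in Vehicle. These levels rest on few fragments.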

How the results depend on the processing

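Over Rab genes and called regulator genes under every alternative, 2060 values kept their side of the threshold, 96 lost a call and 8 gained one. Of 1911 such values of Rab genes 106 changed sign, none (0) of them called before or after, all in genes within 0.07 of 0 on the log2 scale as reported. With SE-BDEV the 3 called Rab genes became 1 with the replicate block and 1 with the library-name digit as block. They became 2 with no filter on low values, 2 with 9 libraries in the fit, and 1 to 2 without single libraries. With no mean-variance trend 3 were called, Rab10 and Rab8b higher and Rab2b lower, without Rab35. With CON-BDEV the 1 called Rab gene became 0 after quantile normalization, with the replicate block, with the library-name digit as block and with no mean-variance trend, became 2 with 9 libraries in the fit, and ran from 0 to 4 without single libraries. With SE-BDEV, Rab8b missed the threshold with the replicate block (adjusted p = 0.0532) and the digit block (0.0531), and so did Rab35 (0.0630 and 0.0586), and Rab10 with CON-BDEV (0.0772 and 0.0673). No pairing by replicate number was seen, though 3 libraries per group cannot exclude it. The mean correlation of same-numbered libraries was -0.04 (from -0.26 to 0.19), against 0.02 for libraries of other numbers. Of the 9 libraries, 3 correlated best with a library that shares their number. Over all genes, the 1253 calls with SE-BDEV became 830 with 9 libraries in the fit, 726 with no filter on low values, and 501 to 1311 without single libraries. The 597 calls with CON-BDEV became 112 with no filter on low values, 364 with the replicate block and 275 with the library-name digit as block, and 84 to 1067 without single libraries. For SE-BDEV against CON-BDEV the 0 calls became 1 with no mean-variance trend, and 0 to 1 without single libraries, while Rab genes stayed at 0. Quantile normalization changed the share of higher calls with CON-BDEV to 54.7% of 550, against 67.2% of 597 as deposited. The causes were not tested.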

Other observations

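Rab15, an endosomal Rab best known from neural cells, lay under the 1 FPKM limit and was lower in all 6 vesicle libraries than in Vehicle. It had 0.483, 0.458 and 0.529 FPKM in SE-BDEV and 0.438, 0.525 and 0.485 FPKM in CON-BDEV, against 0.770, 0.740 and 0.692 FPKM in Vehicle. Rab39, linked to phagosomes and autophagy, had 0.818, 0.650 and 0.935 FPKM in SE-BDEV and 0.972, 0.942 and 0.888 FPKM in CON-BDEV, against 1.16, 0.960 and 1.24 FPKM in Vehicle. Both averaged under 1 FPKM over the 9 libraries and so are not among the 43 genes, and no test of them is given.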
